A study of Rattus norvegicus with 6 samples.

Results

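Transcripts for the matrix of the early heart were examined in rat heart primordia, the tissue that forms the heart tube. The 9 genes were taken by name for their place in the cardiac jelly, by a rule with no threshold on a measured value. They were Ugdh, Has2, Cd44, Vcan, Hapln1, Fbln1, Fbln2, Fn1 and Hspg2. The array held 30367 probes under 26269 distinct names, and by these names 15 probes belonged to 8 of the 9 genes. Hspg2 had 0 probes under that name. It was read from 1 probe with the older name LOC313641, which the array describes as perlecan and whose number is the gene ID of Hspg2 in RefSeq. A probe was tested where, in either group, every array showed it well above background. This held for 14 of the 16 probes, so that each of the 9 genes had a tested probe, and 13 passed on all 6 arrays.

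The primordia came from untreated embryos of Wistar rats (spelled Wister in the labels) on embryonic day 10. In the 3 samples of the pre-heartbeat group the centre of the primordium was still flat, and in the 3 of the post-heartbeat group it was raised. The groups therefore stand for shape and stage as well as for the beat, and these cannot be told apart. Each sample was the total RNA of a dissected tissue hybridized to 1 array, and how many primordia went into a sample is not given in the sources used here. In such bulk samples, fewer cells of a type and less RNA per cell cannot be told apart.

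Cardiac jelly is the swollen, nearly cell-free matrix between the myocardium and the endocardium of the early heart. Its bulk is hyaluronan, a long sugar chain made from UDP-glucuronic acid at the cell surface, which holds water. Versican, a large chondroitin sulfate proteoglycan, binds hyaluronan through its head, link protein locks this bond, and fibulins, fibronectin and perlecan tie the matrix to itself and to cells. Mouse embryos without Has2 or without versican lack cardiac jelly and die with malformed hearts. The arrays measured transcripts, not hyaluronan or protein.

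Each value below is the signal that 1 stretch of 60 bases captured. The following 5 probes are shown as the exact stretches that gave their values. For Vcan, Hapln1 and Fn1 the probe shown is not the brightest one. Where within the transcripts the 5 probes lie was not determined. They are written 5′ to 3′ in the sense of the transcript, and no base is marked. The array's annotation places them on the rat genome build rn4. The Ugdh probe lies at chr14:45570166-45570225 on the plus strand. The Vcan probe shown lies at chr2:19714573-19714632 (minus) and the Hapln1 probe at chr2:19629918-19629977 (plus). The Fbln2 probe lies at chr4:125440452-125440511 (plus) and the Fn1 probe shown at chr9:70745666-70745725 (minus).
Ugdh: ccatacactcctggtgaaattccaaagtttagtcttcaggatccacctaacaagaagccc
Vcan: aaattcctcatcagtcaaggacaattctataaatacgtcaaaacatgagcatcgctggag
Hapln1: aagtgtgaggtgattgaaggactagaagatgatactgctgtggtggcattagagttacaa
Fbln2: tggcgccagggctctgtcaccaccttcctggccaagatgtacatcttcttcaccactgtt
Fn1: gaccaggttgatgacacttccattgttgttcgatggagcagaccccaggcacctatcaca

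All 9 genes gave signal in both groups, and for none of them did the difference between the groups pass the test against the spread between arrays. Values are log2 signals less the array's 75th percentile, so that 0 is the level below which 75% of the spots lay, and differences are post-heartbeat minus pre-heartbeat. Of the 14 tested probes, 0 were called in limma at an adjusted p under 0.05, with adjusted p between 0.858 and 0.989. Over all 19299 tested probes, 28 were called, which is 0.145%, with 0.124% higher and 0.0207% lower. At this share, no call among 14 probes sets them apart from other probes. At an unadjusted p under 0.05, 0 of the 14 probes passed, against 7% of all tested probes. The groups were without overlap for 0 of the 14 probes and for 11.6% of all tested probes. With 3 arrays in each group, the exact permutation test cannot go below p = 0.1.

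Without the slide block described below, the 14 probes were evenly split in direction, with 7 positive and 7 negative differences. With the brightest tested probe standing for each gene, 5 genes had a positive difference (Vcan, Hapln1, Fbln2, Fn1 and Hspg2) and 4 a negative one (Ugdh, Has2, Cd44 and Fbln1). The median difference over the 9 genes was 0.033, and the median over all tested probes was -0.033. The median size without regard to sign was 0.139 for the 9 genes and 0.167 for all tested probes.

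The intervals bound the size of the differences. For the brightest probe of 8 of the 9 genes, the 95% interval of limma lay within a 2-fold change in either direction. It did so for 79.4% of all tested probes. The exception was Hspg2. Within a 1.5-fold change lay the intervals of the brightest probes of 5 genes, namely Hapln1, Ugdh, Cd44, Fbln1 and Fn1. It held for 43.2% of all tested probes. Further tested probes of Fn1 (-1.06 to 0.74) and Cd44 (-1.44 to 0.88 and -0.87 to 1.27) had intervals that crossed a 2-fold change. Those of Vcan and Hapln1 did not. Changes inside these intervals were not excluded.

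**Figure D1:**
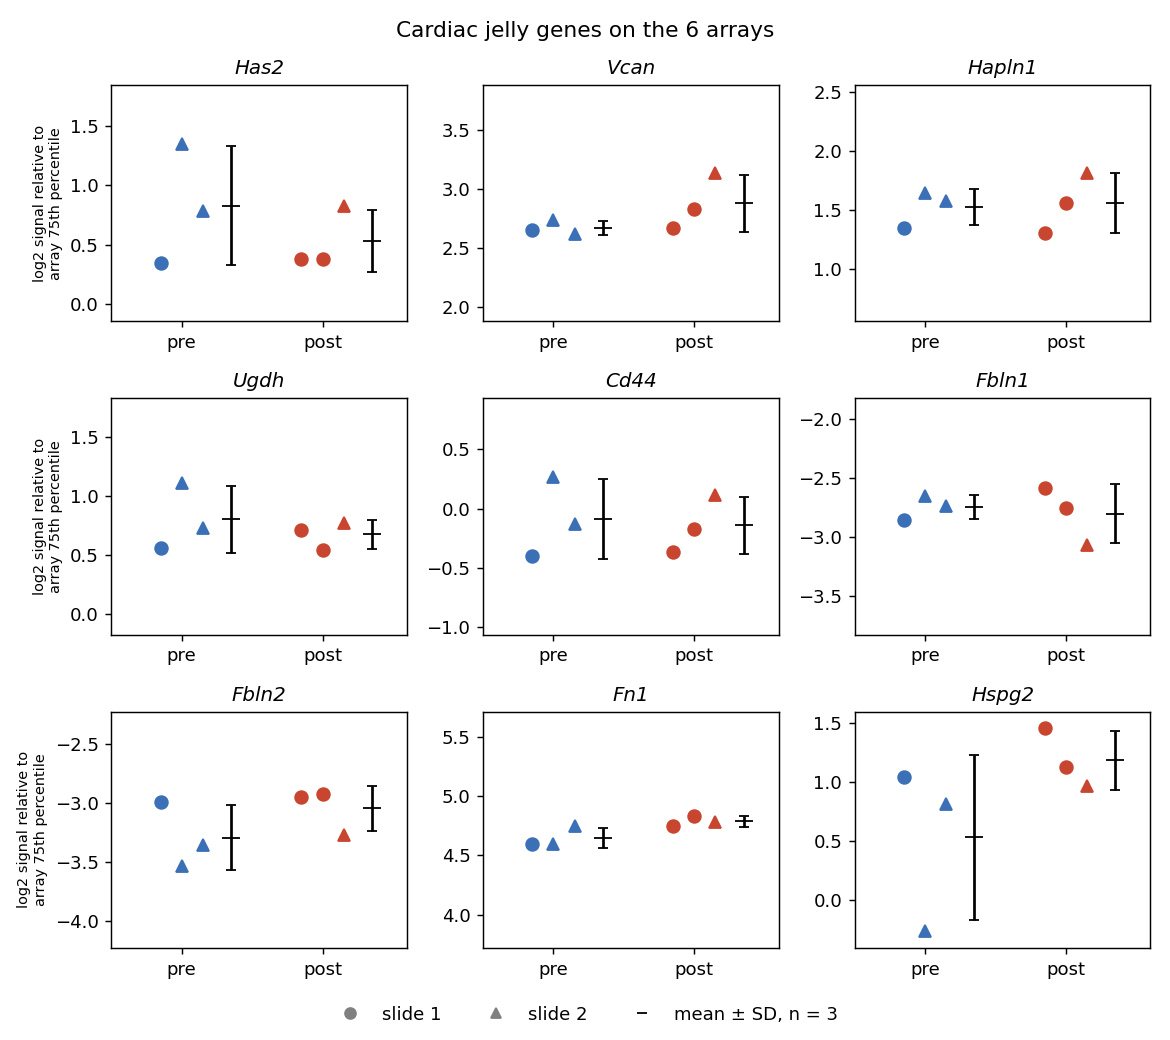
Log2 signal less the array's 75th percentile (vertical axes, each spanning the same number of log2 units) for the brightest tested probe of each gene in the pre-heartbeat (blue) and post-heartbeat (red) arrays. Circles are slide 1, triangles slide 2, and bars are the mean ± SD of 3 arrays. The groups overlap for each of the 9 genes, and the pre-heartbeat array at 1.35 for Has2 and at -0.26 for Hspg2 is the same one, replicate 2.

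The arrays lay on 2 slides, which were scanned separately. On slide 1 were replicate 1 of the pre-heartbeat group and replicates 1 and 2 of the post-heartbeat group, and the remaining arrays were on slide 2. The first principal component of all tested probes took 60.2% of the variance and separated the slides, with pre-heartbeat replicate 2 at its end. The 75th percentile ran from 1143 to 1694 intensity units, and 0 spots were saturated. Of 58717 spots, 39375 to 41327 were well above background on an array. The slide moved with several of the values below, so values from a fit that takes the slide as a block stand beside them.

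Hyaluronan is made in steps, and the genes for its last steps were measured first. Ugdh encodes UDP-glucose dehydrogenase, which makes the UDP-glucuronic acid that hyaluronan and chondroitin sulfate need. Its signal was 0.56, 1.11 and 0.73 in pre-heartbeat replicates 1 to 3, and 0.71, 0.54 and 0.77 in post-heartbeat replicates 1 to 3. The post-heartbeat arrays all lay inside the range of the pre-heartbeat ones except the lowest. The means were 0.80 ± 0.28 and 0.67 ± 0.12 (SD, n = 3 each), and the difference was -0.13 (95% interval -0.55 to 0.30, limma adjusted p = 0.866, exact permutation p = 0.6). Pre-heartbeat replicate 2 was the highest of the 6 arrays, and without it the difference was 0.029, with the sign turned. With the slide block it was -0.043 (95% interval -0.41 to 0.33, adjusted p = 0.999).

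Has2 encodes the hyaluronan synthase of the early heart, an enzyme of the cell membrane that extrudes the growing chain. The pre-heartbeat arrays gave 0.35, 1.35 and 0.78, and the post-heartbeat arrays 0.37, 0.38 and 0.83. The lowest and the highest array were both pre-heartbeat. The mean was 0.83 ± 0.50 before and 0.53 ± 0.26 after heartbeat initiation (SD, n = 3 each). The difference was -0.30 (95% interval -0.95 to 0.35, limma adjusted p = 0.864, exact permutation p = 0.7), a fold of 0.812 with bounds of 0.516 and 1.28.

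The arrays for Has2 were ordered by slide rather than by group. The 3 arrays of slide 1 lay between 0.35 and 0.38, and those of slide 2 between 0.78 and 1.35. In the fit with both terms, slide 2 was above slide 1 by 0.59 (SE 0.18, limma adjusted p = 0.0657). With the slide block, the difference between the groups was -0.10 (95% interval -0.53 to 0.32, adjusted p = 0.999). Within slide 1 it was 0.030, and within slide 2 it was -0.24. Without pre-heartbeat replicate 2 the difference was -0.037.

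Cd44 encodes a cell surface receptor for hyaluronan and had 4 probes. The brightest, at chr3:88023005-88023064 on the minus strand, read -0.40, 0.27 and -0.13 in the pre-heartbeat and -0.37, -0.17 and 0.12 in the post-heartbeat arrays. In each group 1 array was above 0, and both of these were on slide 2. The difference was -0.054 (95% interval -0.57 to 0.46, limma adjusted p = 0.950, exact permutation p = 0.8). It turned to 0.089 with the slide block (95% interval -0.28 to 0.46, adjusted p = 0.999), and to 0.12 without pre-heartbeat replicate 2.

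The other Cd44 probes gave dim signals. One of them, at chr3:88052458-88052517, was well above background on all 6 arrays, at -5.97, -4.35 and -4.37 before and -5.74, -5.17 and -4.61 after heartbeat initiation. Here slide 2 was above slide 1 by 1.23 (SE 0.22, limma adjusted p = 0.0117). In the same fit the difference between the groups was 0.13 (adjusted p = 0.999). It was -0.28 without the slide block (adjusted p = 0.881). Another, at chr3:88041645-88041704, was well above background on 2 pre-heartbeat and all 3 post-heartbeat arrays, so it was tested only because of the post-heartbeat group. Its difference was 0.20 (limma adjusted p = 0.904), and 0.52 with the slide block (adjusted p = 0.741). The last, at chr3:88055398-88055457, passed on 2 pre-heartbeat arrays and 1 post-heartbeat array and was not tested. Its signals were between -6.84 and -4.94.

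For Vcan, the versican gene, the brightest probe was among the steadier ones before heartbeat initiation, while the other probe varied more. The brightest probe, at chr2:19712767-19712826 on the minus strand, gave 2.65, 2.74 and 2.62 in the pre-heartbeat arrays. The post-heartbeat arrays gave 2.67, 2.83 and 3.14. The means were 2.67 ± 0.060 and 2.88 ± 0.24 (SD, n = 3 each), and the groups overlapped at a single array of each, post-heartbeat replicate 1 and pre-heartbeat replicate 2. The difference was 0.21 (95% interval -0.18 to 0.59, limma adjusted p = 0.864, exact permutation p = 0.2).

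The other Vcan probe, whose sequence is given above, read 1.38, 1.94 and 1.80 before and 1.54, 1.83 and 2.21 after heartbeat initiation. Its difference was 0.15 (95% interval -0.39 to 0.69, limma adjusted p = 0.868). The slide block made it 0.32 (95% interval -0.013 to 0.65, adjusted p = 0.547), the smallest such adjusted p among the 14 probes. Within the slides it was 0.30 on slide 1 and 0.34 on slide 2. The brightest probe gave 0.28 with the block (95% interval -0.064 to 0.62, adjusted p = 0.677). Both probes had positive differences with and without the block, and neither passed the test. The difference of the brightest probe was 0.077 without post-heartbeat replicate 3, the highest array, and 0.31 without post-heartbeat replicate 1. The array assigns both probes to the same 4 RefSeq transcript variants of versican, which differ in the stretch that carries chondroitin sulfate, so no variant was read apart from the others.

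Hapln1 encodes the link protein that holds versican on hyaluronan. It is the neighbour of Vcan on chromosome 2, with 0 RefSeq genes between them, and their nearest probes lie 74784 bp apart on rn4, on opposite strands. The brightest Hapln1 probe, at chr2:19637923-19637982 on the plus strand, gave 1.35, 1.64 and 1.58 in the pre-heartbeat and 1.30, 1.56 and 1.81 in the post-heartbeat arrays. The lowest and the highest array were both post-heartbeat, with all pre-heartbeat arrays between them. The difference was 0.033 (95% interval -0.39 to 0.45, limma adjusted p = 0.962, exact permutation p = 1), and 0.14 with the slide block (95% interval -0.18 to 0.46, adjusted p = 0.961). Its sign was not settled, as it was -0.054 without pre-heartbeat replicate 1 and -0.094 without post-heartbeat replicate 3.

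The Hapln1 probe whose sequence is shown read 0.058, 0.57 and 0.39 before and 0.18, 0.29 and 0.51 after heartbeat initiation, with a difference of -0.011 (limma adjusted p = 0.989). For both Hapln1 probes each array of slide 2 was above each array of slide 1. A further probe, at chr2:19625975-19626034, was well above background on 2 pre-heartbeat arrays and 1 post-heartbeat array and was not tested. It read between -6.06 and -4.91 before and between -7.13 and -5.68 after heartbeat initiation.

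The fibulins, which bind versican, fibronectin and basement membrane proteins, had 1 probe each. Fbln1 was read at chr7:123286906-123286965 on the plus strand, with -2.86, -2.65 and -2.74 in the pre-heartbeat and -2.58, -2.75 and -3.07 in the post-heartbeat arrays. The post-heartbeat arrays again held both extremes. The difference was -0.053 (95% interval -0.45 to 0.35, limma adjusted p = 0.936, exact permutation p = 0.8), and -0.093 with the slide block (adjusted p = 0.999). It was 0.080 without post-heartbeat replicate 3.

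For Fbln2 the pre-heartbeat arrays gave -2.99, -3.53 and -3.36, and the post-heartbeat arrays -2.95, -2.92 and -3.27. Post-heartbeat replicates 1 and 2 were above all pre-heartbeat arrays, and both were on slide 1. The difference was 0.25 (95% interval -0.21 to 0.70, limma adjusted p = 0.864, exact permutation p = 0.2). With the slide block it was 0.12 (95% interval -0.19 to 0.42, adjusted p = 0.982), where slide 2 was below slide 1, at a difference of -0.39 (SE 0.13, adjusted p = 0.0823). Without pre-heartbeat replicate 2, the lowest array, it was 0.13, and without pre-heartbeat replicate 1 it was 0.40.

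Fn1 encodes fibronectin, a fibrous protein that cells grip through integrins and on which the heart precursors migrate. Its brightest probe, at chr9:70702316-70702375 on the minus strand, had the narrowest interval of the 9 genes. It read 4.60, 4.60 and 4.75 in the pre-heartbeat and 4.75, 4.84 and 4.78 in the post-heartbeat arrays. The groups touched at pre-heartbeat replicate 3 and post-heartbeat replicate 1. The means were 4.65 ± 0.087 and 4.79 ± 0.046 (SD, n = 3 each), and the difference was 0.14 (95% interval -0.17 to 0.44, limma adjusted p = 0.864, exact permutation p = 0.2). The slide moved this probe by 0.030 (SE 0.13), and the difference with the slide block was 0.15.

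The other Fn1 probe, whose sequence is shown, behaved differently. It gave -1.70, -0.62 and -0.86 before and -1.49, -1.63 and -0.53 after heartbeat initiation. The 3 arrays of slide 1 were all below those of slide 2, and the slide difference of 0.998 (SE 0.14, limma adjusted p = 0.00467) had the smallest slide p among the 14 probes. The difference between the groups was -0.16 (95% interval -1.06 to 0.74, adjusted p = 0.912) and became 0.18 with the slide block (adjusted p = 0.906). Averaged over both probes, Fn1 had a difference of -0.0090. The probes span 43410 bp of the gene, and the cause of their disagreement was not tested.

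Hspg2 encodes perlecan, the large heparan sulfate proteoglycan of basement membranes. It was read at chr5:156328824-156328883 on the plus strand, with 1.04, -0.26 and 0.81 in the pre-heartbeat and 1.45, 1.13 and 0.97 in the post-heartbeat arrays. Post-heartbeat replicates 1 and 2 lay above all pre-heartbeat arrays, and pre-heartbeat replicate 2 lay far below the rest. The means were 0.53 ± 0.70 and 1.18 ± 0.25 (SD, n = 3 each). This was the largest difference of the 9 genes, 0.65 or 1.57-fold, with an interval from -0.17 to 1.47 (limma adjusted p = 0.858, exact permutation p = 0.2).

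Within each slide the Hspg2 difference had the same sign, 0.25 on slide 1 and 0.69 on slide 2. Under the slide block it was 0.47 (95% interval -0.19 to 1.13, limma adjusted p = 0.777). Without pre-heartbeat replicate 2 it was 0.25. The genes whose signal followed that of Hspg2 most closely over the 6 arrays were Rab11fip5 and Slc26a1 (Pearson's r = 0.998 each), then Slc12a7, RGD1309313 and Pitpnm2 (r = 0.997 each). These correlations are a description over 6 points that share 2 slides and the low array, pre-heartbeat replicate 2.

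**Figure D2:**
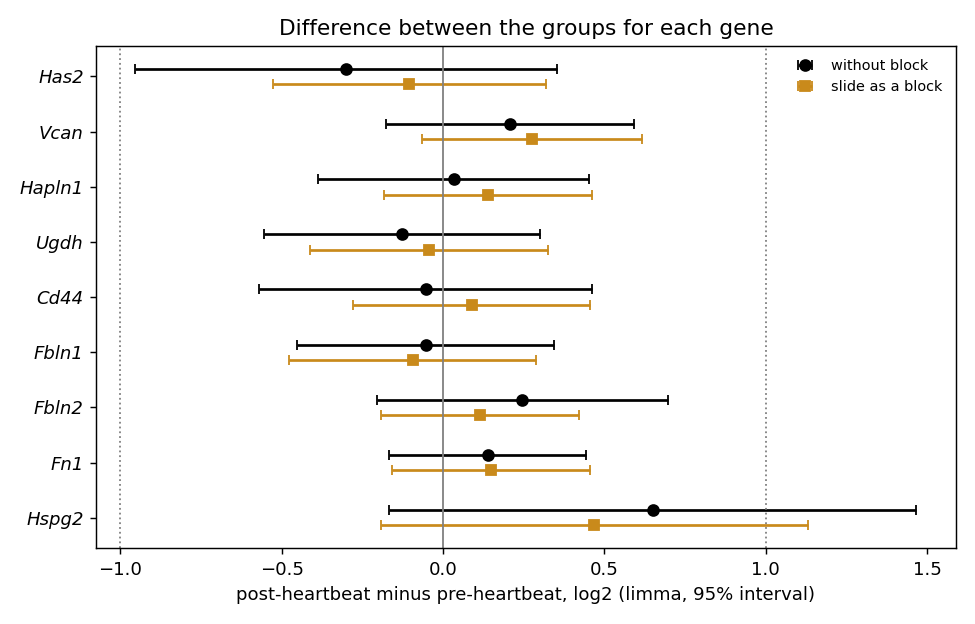
Difference between the groups in log2 (horizontal axis) for the brightest tested probe of each gene, with the 95% interval of limma, without a block (black circles) and with the slide block (yellow squares). Dotted lines mark a 2-fold change in either direction. Every interval includes 0, and only that of Hspg2 crosses a dotted line.

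Under the slide block, the 14 probes still had 0 calls at an adjusted p under 0.05 and 0 at an unadjusted p under 0.05, while 1.51% of all tested probes were called, 1.09% as higher and 0.42% as lower. Of the 9 genes, 6 then had a positive and 3 a negative difference, since Cd44 changed sign. The negative ones were those of Has2, Ugdh and Fbln1, and every other tested probe of the 14 had a positive difference. The intervals of the brightest probes lay within a 2-fold change for 8 genes and within a 1.5-fold change for 7, beside 92.5% and 67.8% of all tested probes.

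Differences between the slides were mostly larger than those between the groups. For 7 of the 9 genes, the difference between the slides was larger in size than that between the groups in the same fit. The share of all tested probes for which this held was not counted. The median size of the slide difference was 0.32 for the 9 genes and 0.259 for all tested probes. Of the 14 probes, 3 were called between the slides, namely the dim Cd44 probe, the second Fn1 probe and the second Vcan probe (slide difference 0.51, SE 0.14, limma adjusted p = 0.0496), and all were higher on slide 2. Over all tested probes, 16.1% were called between the slides and 7.43% were higher on slide 2. The slides were without overlap for 9 of the 14 probes and for 42.4% of all tested probes.

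**Figure D3:**
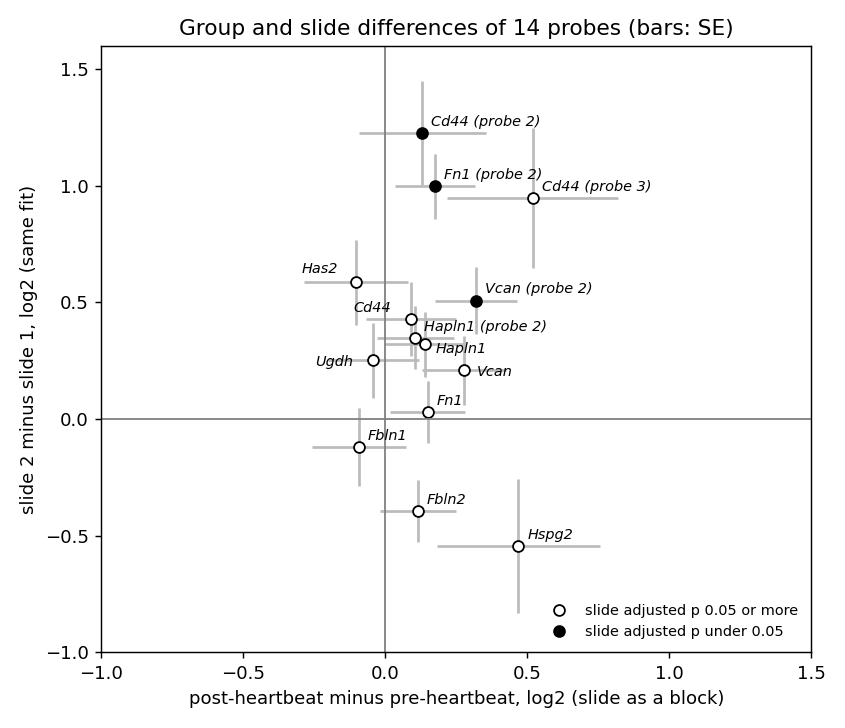
Difference between the groups with the slide block (horizontal axis, log2) against the difference between the slides in the same fit (vertical axis, log2) for the 14 tested probes, with bars of 1 SE. A number in brackets marks a gene's further probes in order of brightness. The points spread more along the vertical than the horizontal axis, and the 3 filled points were called between the slides.

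The same question was put to the wider matrix, through 9 lists of 98 genes that include the 9 above. On the array were 93 of these genes, and 76 had a tested probe, 72 of them well above background on all 6 arrays. In limma 0 of the 76 were called, beside the 0.145% of all tested probes, with 39 positive and 37 negative differences and a median of 0.0076. The groups were without overlap for 18 of the 76 genes, beside 11.6% of all tested probes. With the slide block 2 genes were called, Ltbp1 and Timp3, both higher after heartbeat initiation, beside 1.51% of all tested probes called and 1.09% called as higher. By the selection of the methods, a change of at least 1.5-fold with an unadjusted p under 0.05, 2 genes were higher and 2 lower, beside 1.9% and 1.16% of all tested probes.

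By list, the medians stayed small. The list of precursor and hyaluronan synthesis, which holds Has2 and Ugdh, had 1 positive and 8 negative differences among 9 tested genes, with a median of -0.12 that was -0.013 with the slide block. Lecticans and link proteins had 4 positive and 1 negative among 5, with a median of 0.19. The receptors and binders of hyaluronan had 2 positive and 5 negative among 7, with a median of -0.056.

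Fibulins and hemicentin had a median of 0.14 over 4 tested genes, and the fibronectin and microfibril list one of 0.045 over 9. Hyaluronan breakdown had a median of 0.097 over 3 genes, and the list of versican-cleaving proteases and metalloproteinase inhibitors one of -0.033 over 6. The heparan sulfate proteoglycan and basement membrane list was evenly divided, with 10 positive and 11 negative among 21 and a median of -0.0024. Chondroitin sulfate synthesis had 8 positive and 4 negative among 12, and its median of 0.21 was 0.063 with the slide block. All of these lists had 0 calls without the block.

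**Figure D4:**
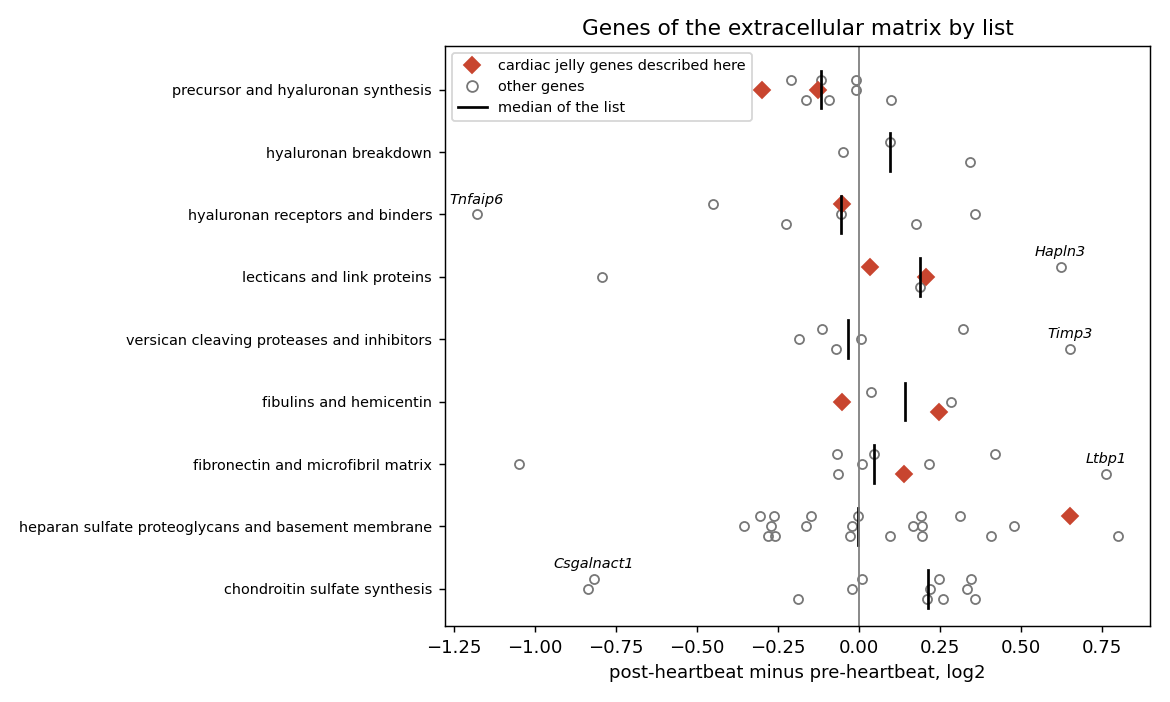
Difference between the groups in log2 (horizontal axis) for the 76 tested genes of the 9 matrix lists, 1 row for each list. Diamonds are the 9 genes described here, open circles the other genes, and vertical bars the list medians. The medians lie between -0.12 and 0.21, and the 5 named genes passed the slide-blocked fit or the selection of the methods.

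Of these lists, 5 genes passed one of these looser or blocked criteria. Hapln3, a link protein of the same family as Hapln1, read 3.67, 3.20 and 3.67 before and 4.08, 4.22 and 4.11 after heartbeat initiation. The groups were without overlap, and the difference was 0.62 or 1.54-fold (SE 0.17, limma adjusted p = 0.341, exact permutation p = 0.1). Ltbp1, which tethers latent TGF-beta to the matrix, read -4.54, -4.33 and -4.54 before and -3.78, -3.97 and -3.36 after. Its groups were also without overlap, with a difference of 0.76 (SE 0.19, adjusted p = 0.269) that was 0.87 with the slide block (adjusted p = 0.0448).

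Timp3, a matrix-bound inhibitor of metalloproteinases, gave dim signals of -6.68, -5.79 and -6.03 before and -5.55, -5.88 and -5.12 after heartbeat initiation. It was well above background on 1 pre-heartbeat and 3 post-heartbeat arrays, so it was tested only because of the group in which it was brighter. The groups overlapped, and the difference of 0.65 (limma adjusted p = 0.755) became 0.88 with the slide block (adjusted p = 0.0437). Its slides differed by 0.68 (adjusted p = 0.0258).

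Both genes selected as lower were dim. Tnfaip6 encodes a secreted protein that binds hyaluronan, and it read -4.69, -3.51 and -4.29 before and -5.71, -5.22 and -5.10 after heartbeat initiation. Its difference was -1.18 (SE 0.32, limma adjusted p = 0.327), and -0.99 with the slide block (adjusted p = 0.136). Csgalnact1, an enzyme that starts chondroitin sulfate chains, read -4.32, -3.50 and -4.00 before and -4.77, -4.86 and -4.63 after. Its difference was -0.82 (SE 0.22, adjusted p = 0.330). For both genes the groups were without overlap.

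Markers placed the tissue. All 10 cardiac muscle markers were tested and had positive differences, with a median of 0.64, 0 calls in limma and 3 (Myh6, Myh7 and Actn2) with the slide block. Their mean signal was 2.73 to 3.11 in the pre-heartbeat and 3.56 to 3.62 in the post-heartbeat arrays. Of 9 endothelial and endocardial markers, 7 were tested, with 1 positive and 6 negative differences, a median of -0.26 and 0 calls. Their mean was -0.82 to -0.57 before and -0.97 to -0.80 after heartbeat initiation.

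Markers of tissues beside the heart were present as well. The mean over 7 yolk sac endoderm markers ran from -0.043 to 1.38 before and from -0.23 to 0.83 after heartbeat initiation, and 5 of the 7 were called between the slides. Of 8 markers of definitive and foregut endoderm, 6 were tested, and their mean ran from 1.16 to 1.48 before and from 1.13 to 1.17 after. The single markers differed widely, with pre-heartbeat means from -2.80 for Cldn6 to 2.68 for Krt8 and 6.46 for Krt18, both keratin genes. Of the 4 paraxial mesoderm markers tested, 4 had positive differences, with a median of 0.24 and 0 calls.

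Single markers of these tissues passed a criterion. Otx2, a transcription factor of the anterior neural plate, was 1 of 2 neural ectoderm markers tested and was called as lower, from 2.64 ± 0.085 to 1.08 ± 0.12 (SD, n = 3 each, difference -1.56, limma adjusted p = 0.0201). The other one tested, Sox2, had a difference of -0.21 (limma adjusted p = 0.897), and Pax6 and Neurog1 had no tested probe. Sox1 and Sox3 were not on the array. Snai2, a transcription factor of the neural crest and of mesenchyme, was 1 of 2 neural crest markers tested. Its difference of -1.37 (adjusted p = 0.117) was called with the slide block, at -1.21 (adjusted p = 0.0227). The other crest marker tested, Sox10, had a difference of -0.0022 (limma adjusted p = 0.998), and Foxd3 and Tfap2a had no tested probe.

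The remaining markers named here passed the selection of the methods and no adjusted threshold. Among 5 proepicardial and mesenchymal markers, Prrx1 was selected as lower (difference -1.67, limma adjusted p = 0.270) and Tbx18 as higher (1.61, adjusted p = 0.318). Tbx18 was well above background on 2 pre-heartbeat and 3 post-heartbeat arrays, so it was tested only because of the group in which it was brighter. Among 5 erythroid markers, Hbb, a globin gene with close copies, was selected as higher (1.22, adjusted p = 0.359). Among the cardiac muscle markers, Tnni1 was selected as higher (0.73, adjusted p = 0.298). The part of muscle, endoderm or other cells in the values of the matrix genes was not tested.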

How the data were processed

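Expression was measured in 3 pre-heartbeat and 3 post-heartbeat heart primordium samples, on 1-colour Agilent rat arrays read with Feature Extraction 10.7.3.1, as the submitters' processing notes state. The deposited values used here were the processed signal of each spot, an intensity from which the authors' software had subtracted the background. A linear ratio per probe was also deposited, which the authors had shifted to the 75th percentile and divided by a baseline. It served as an alternative.

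Control and outlier spots were left out. From each log2 signal its array's 75th percentile was subtracted, and spots of a probe were averaged. Probes were tested where every array of either group showed them well above background. The brightest tested probe stood for a gene. Groups were compared with limma 3.58.1 in R 4.3.3 with the package data.table (version 1.17.8), with Benjamini-Hochberg adjustment over all 19299 tested probes, and by a two-sided exact permutation test over 20 splits. Differences between slides came from the same fit with slide and group as terms. Figures were drawn with Python 3.11.15 and matplotlib 3.10.9. The limma step was tested on simulated data. The number of arrays limits the precision. Replicates are biological by the labels, and nothing says how embryos were divided among them, so a p measures the spread between these samples.

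The rule for the 9 genes used no measured value, but the genes and lists were proposed with earlier results of these data known. From the lists, genes were named if they passed an adjusted p of 0.05 with or without the slide block, or the methods' selection, and the 5 genes most like the gene with the smallest p were named too. Same-numbered arrays of the groups did not all deviate together (r = 0.648, -0.277 and 0.494). The positive values came from arrays on shared slides, where number and slide cannot be told apart. The numbers were therefore not taken as pairs. Alternatives were the replicate number or slide as a block, normexp (offset 50), quantile normalization, the percentile over probes above background on all 6 arrays, dropping the filter or asking for all 6 arrays, the authors' ratios, the methods' test, a limma trend, the mean of a gene's probes, and leaving out each array. The sequence and position of the Has2 probe are not reported here.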

Additional observations from a re-analysis of the deposited data

How the results depend on the processing

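Under each of the 18 alternatives run for a gene, 0 of the 9 genes were called. Log2 differences ranged from -0.54 to -0.037 for Has2, 0.077 to 0.31 for Vcan, 0.12 to 0.40 for Fbln2 and 0.25 to 0.91 for Hspg2, all without a change of sign. Several alternatives could not move a difference, so a kept sign there tells nothing. These were the replicate number as a block, both changes of the filter, the methods' selection and test, and the limma trend. For a gene with a single probe, the mean of its probes could not move it either. The sign changed for Hapln1 (range -0.094 to 0.16, with -0.054 without pre-heartbeat replicate 1 and -0.094 without post-heartbeat replicate 3) and Ugdh (-0.25 to 0.029, the latter without pre-heartbeat replicate 2). It also changed for Cd44 (-0.21 to 0.12, with 0.089 under the slide block, 0.12 without pre-heartbeat replicate 2 and 0.058 without post-heartbeat replicate 1), Fbln1 (-0.16 to 0.080, the latter without post-heartbeat replicate 3) and Fn1 (-0.0090 to 0.19, the former with the mean of its probes). The cause was not tested.

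Counts over all probes moved more. Against 24 higher and 4 lower, the replicate number as a block gave 110 and 56, the slide block 211 and 81, the limma trend 38 and 7, no filter 1 and 0, the methods' selection 366 and 223, and the methods' test after Benjamini-Hochberg adjustment 0 and 0. Higher probes numbered 43 with normexp, 11 with quantile normalization and 10 with the authors' ratios. Leaving out 1 array gave 0 to 1 higher and 0 to 1 lower, with fewer samples in the fit. Of the matrix lists, 0 genes were called, against 2 higher with the slide block, and 2 higher and 2 lower with the methods' selection. Pre-heartbeat replicate 1 correlated best with post-heartbeat replicate 1, and pre-heartbeat replicates 2 and 3 both with post-heartbeat replicate 3, so not every array was closest to its own number.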
